A study of Mus musculus with 2 samples.

Results

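The skeletal muscle acetylcholine receptor is built from the products of 5 genes, Chrna1, Chrnb1, Chrnd, Chrne and Chrng, and the DNase I accessibility of these genes was examined in old mouse calf muscle. In DNase-seq, nuclei are treated with DNase I, an enzyme that cuts DNA where chromatin is open, and the cut ends are sequenced. The tissue was whole gastrocnemius of male adult B6CASTF1/J mice (an F1 hybrid) aged 18 to 20 months, untreated as far as the labels say. There were 2 biological replicates in 1 group, with no control, no other age and no other tissue. The replicates share a donor label but not a biosample label. Whether they came from 1 animal is not known, and every SD here may therefore be technical spread. With 1 group no difference between conditions could be tested, and no p-value of a comparison is given.

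The 5 genes were chosen by name, as the subunits of the muscle receptor, out of 21826 protein-coding genes of the GENCODE annotation. Their accessible regions were all peaks of the larger deposited list of each replicate that lay in a gene body or within 20 kb of either end. Chrnd and Chrng, neighbours on chromosome 1, were read as 1 locus, which gives 4 loci. The rule found 37 of 131398 peaks in replicate 1 and 26 of 91567 peaks in replicate 2, a mean of 31.5 ± 7.78 (SD, n = 2). It found 103 of 339656 footprints in replicate 1 and 69 of 234091 footprints in replicate 2, a mean of 86 ± 24.0. A footprint is a short stretch inside open chromatin that was cut less than its surroundings. Coordinates are on mm10 (GRCm38), and a signal is the peak height in the authors' own unit, whose scale is not stated.

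The receptor is a ligand-gated cation channel in the muscle membrane under the motor nerve ending. Alpha subunits, encoded by Chrna1, form the acetylcholine binding sites together with their neighbours, and the beta (Chrnb1) and delta (Chrnd) subunits complete the ring. The last place is taken by gamma (Chrng) in fetal and denervated muscle and by epsilon (Chrne) in innervated adult muscle. In adult fibres the genes are transcribed mainly by the few nuclei under the nerve ending. Binding sites described for these genes are E-boxes (CANNTG), bound by the MyoD family, and the N-box (CCGGAA), bound by Ets factors such as GABP.

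The 5 promoters fell into 3 states. A promoter here is 1 kb on either side of an annotated protein-coding start site. Chrnb1 and Chrne had a promoter peak in both replicates, Chrna1 had one in replicate 1 alone, and Chrnd and Chrng had none in either. That is 3 of 5 genes in replicate 1 and 2 of 5 in replicate 2, beside 65.7% and 63.5% of all protein-coding genes, and 2 of 5 in both replicates, beside 62.4%. The sample is bulk tissue, so fewer nuclei with an open site and less opening per nucleus cannot be told apart.

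**Figure D1:**
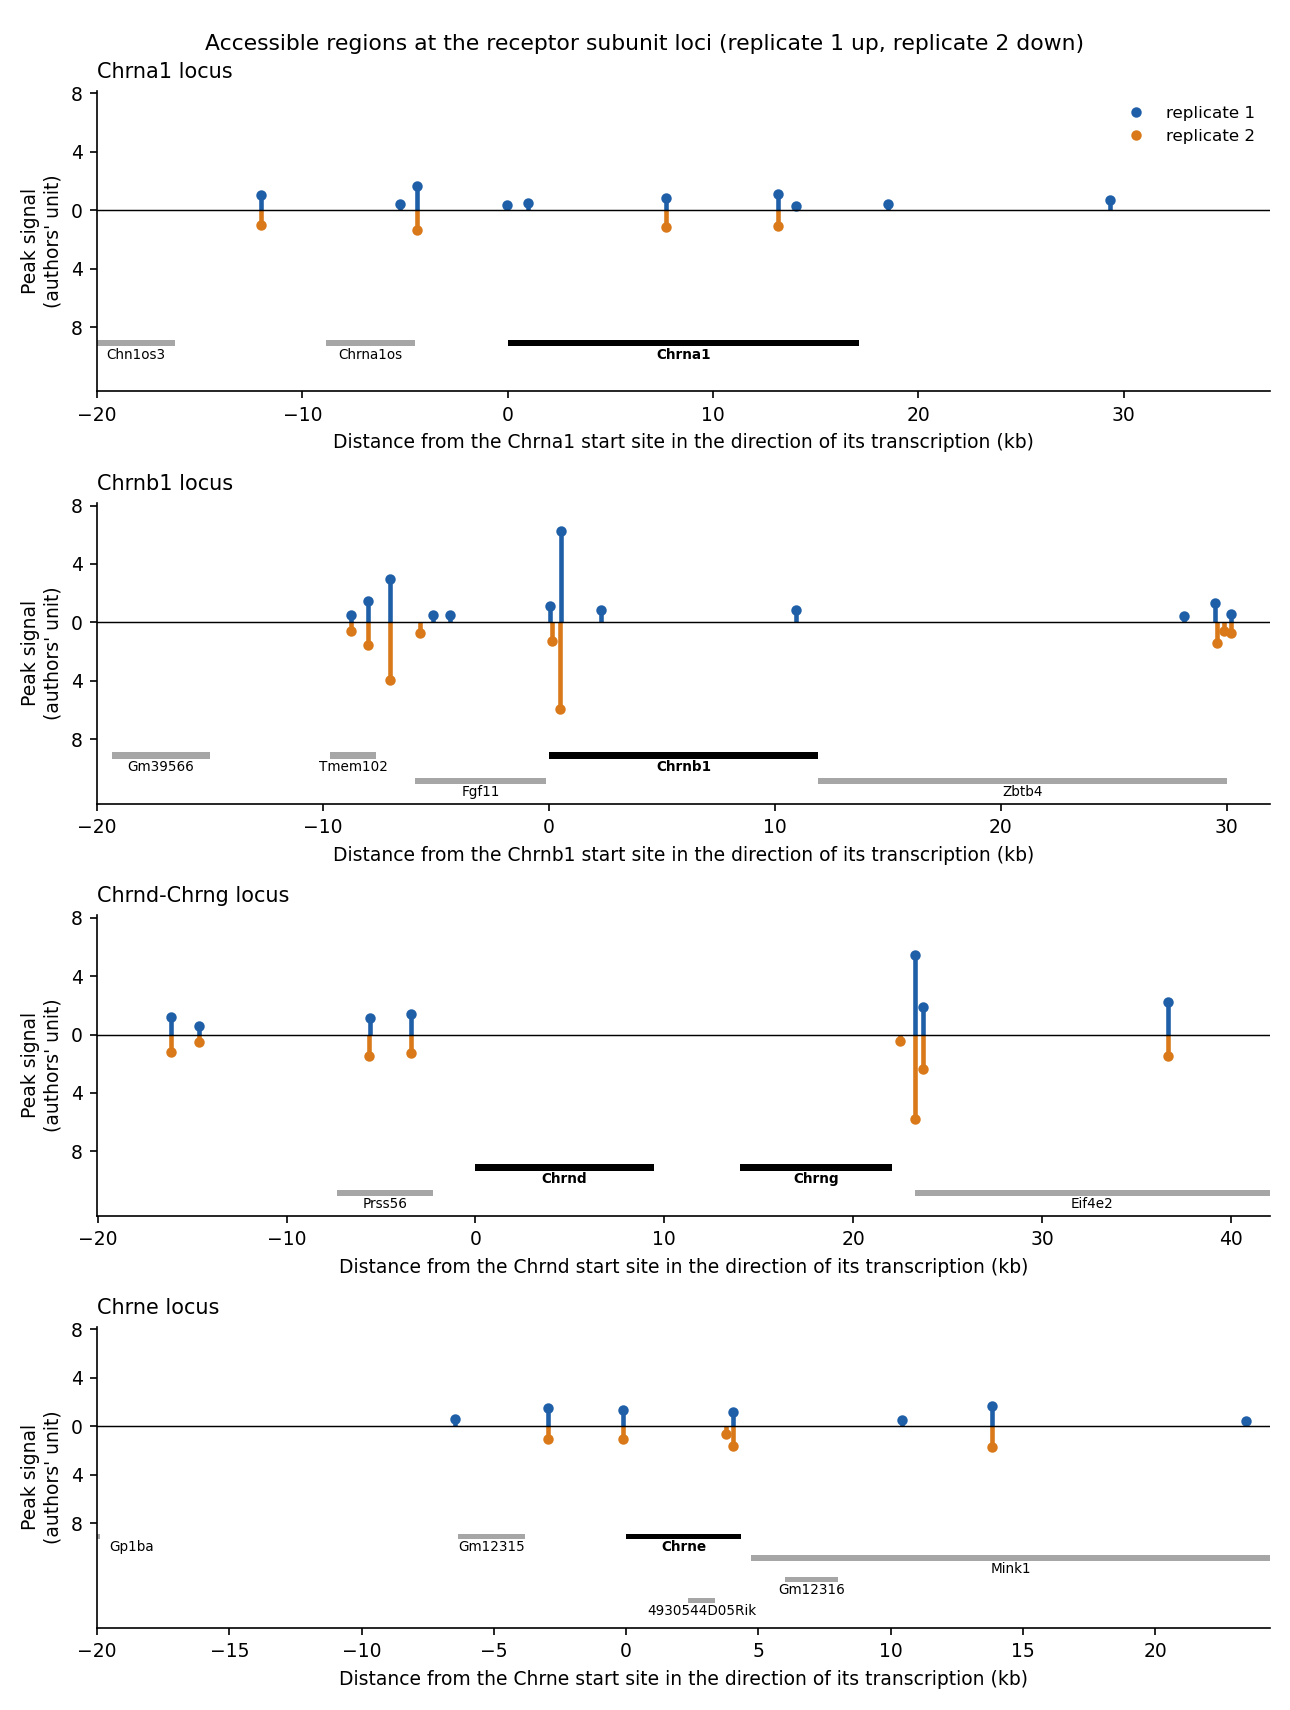
Peak signal in the authors' unit (vertical axis, replicate 1 upward in blue and replicate 2 downward in orange) against distance in kb from the start site of Chrna1, Chrnb1, Chrnd and Chrne, in the direction of transcription. Black bars are the subunit genes and grey bars their neighbours. The strongest peak of a subunit gene lies inside Chrnb1 (6.26 in replicate 1, 5.90 in replicate 2), and no peak lies over Chrnd or Chrng.

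Chrna1, the alpha subunit gene (chr2:73563215-73580338, minus strand), had the lowest share of its regions called in both replicates (4 of 10, 40%). The share was 50% at Chrnb1, 50% at Chrne, 87.5% at the Chrnd-Chrng locus and 51.9% over the genome. With the 91567 strongest peaks kept in each replicate, Chrna1 fell from 11 to 8 peaks in replicate 1 and still had 4 shared regions. The other loci lost no peak, so the lowest rank was not shown to hold at equal list lengths. In replicate 1 a peak of signal 0.360 lay over the start site (chr2:73580292-73580488), at percentile 24.5 of all peaks of that replicate and with a lowest deposited false discovery rate of 0.00372. A stronger one of 0.528 lay in intron 1 (chr2:73579261-73579480), its middle 967.5 bp downstream of the start site. In replicate 2 the promoter held 0 bases under the deposited false discovery rate of 0.05, and the nearest peak was 4343 bp away. The bases before the start site are shown because they hold 3 E-boxes (capitals), at -92, -73 and -44 counted from the RefSeq start site. They come from the RefSeq promoter table (GRCm38.p6, chr2:73580339-73580588, minus strand).
Chrna1 promoter: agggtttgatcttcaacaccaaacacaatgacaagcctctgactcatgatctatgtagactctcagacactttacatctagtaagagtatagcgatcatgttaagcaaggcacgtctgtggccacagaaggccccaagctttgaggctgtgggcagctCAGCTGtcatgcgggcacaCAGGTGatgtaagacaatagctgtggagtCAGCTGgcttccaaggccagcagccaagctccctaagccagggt
The E-box CAGGTG at -73 lay within 5 bp of a replicate 1 footprint, and both CAGCTG copies lay in the replicate 1 peak outside footprints. Of all 27025 RefSeq promoter windows of 300 bases, 72.1% hold CANNTG, 16.1% CAGCTG and 20.0% CAGGTG on either strand, where the last 2 are cases of the first.

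Away from its promoter, Chrna1 had 4 regions called in both replicates. Inside the gene these were in intron 7 (chr2:73567061-73567260), with signals of 1.12 in replicate 1 and 1.06 in replicate 2, and in intron 4 (chr2:73572561-73572740), with 0.827 and 1.17. Upstream, the strongest region of the locus (chr2:73584681-73584860) had 1.68 in replicate 1 and 1.36 in replicate 2, a mean of 1.52 ± 0.220. It spans the start of the antisense record Chrna1os (chr2:73584850-73589208), and without strand information the region cannot be given to either gene. A further upstream region (chr2:73592261-73592500) had 1.08 and 1.00. The whole locus held 11 peaks and 25 footprints in replicate 1, against 4 peaks and 8 footprints in replicate 2. With the 91567 strongest peaks kept in each replicate, it held 8 and 4 peaks. In replicate 1 the density of peaks was higher than at 87.5% of protein-coding genes, and in replicate 2 higher than at 57.3%.

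Chrnb1, the beta subunit gene (chr11:69784036-69795943, minus strand), had the strongest promoter peak of the 5 genes. Its signal was 6.26 in replicate 1 and 5.90 in replicate 2, a mean of 6.08 ± 0.255, at percentiles 97.9 and 96.1 of all peaks. Among all genes with a promoter peak it ranked 2758 of 14335 in replicate 1 and 3492 of 13870 in replicate 2. The peak did not cover the start site, since its middle lay 532.5 and 472.5 bp downstream, in intron 2 (with part of exon 2 in replicate 2). A weaker peak lay over or just inside the first exon, with 1.16 in replicate 1 (chr11:69795701-69796060) and 1.29 in replicate 2 (chr11:69795701-69795900). The intron 2 region held 7 footprints in replicate 1 and 6 in replicate 2, and the region at the first exon held 0 in both.

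The intron 2 region is printed because it carries the strongest signal of any subunit gene and most of its footprints were met in both replicates. It is the reference genome at chr11:69795321-69795620, minus strand (GRCm38), with the bases inside a footprint of either replicate in capitals.
Chrnb1 intron 2: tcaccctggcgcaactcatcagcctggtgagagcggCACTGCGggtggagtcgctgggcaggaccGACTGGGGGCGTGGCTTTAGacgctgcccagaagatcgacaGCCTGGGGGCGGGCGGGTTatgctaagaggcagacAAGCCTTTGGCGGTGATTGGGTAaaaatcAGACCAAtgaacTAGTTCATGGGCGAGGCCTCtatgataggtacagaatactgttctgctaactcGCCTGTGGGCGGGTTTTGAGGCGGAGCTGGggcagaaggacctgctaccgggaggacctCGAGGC
It holds 3 GC boxes (GGGCGG on either strand, known from other genes as a site of Sp factors), each inside a footprint widened by 5 bp in both replicates. It also holds 2 CCAAT boxes (CCAAT, the site of NF-Y), of which 1 lay in a footprint in both replicates and 1 in replicate 2 alone. No E-box CANNTG and no N-box was found in it. The 250 bases before the RefSeq start site of Chrnb1 hold 3 E-boxes and 4 GC boxes, none of them in a footprint. GC boxes occur in 35.9% of RefSeq promoter windows and CCAAT boxes in 37.9%.

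**Figure D2:**
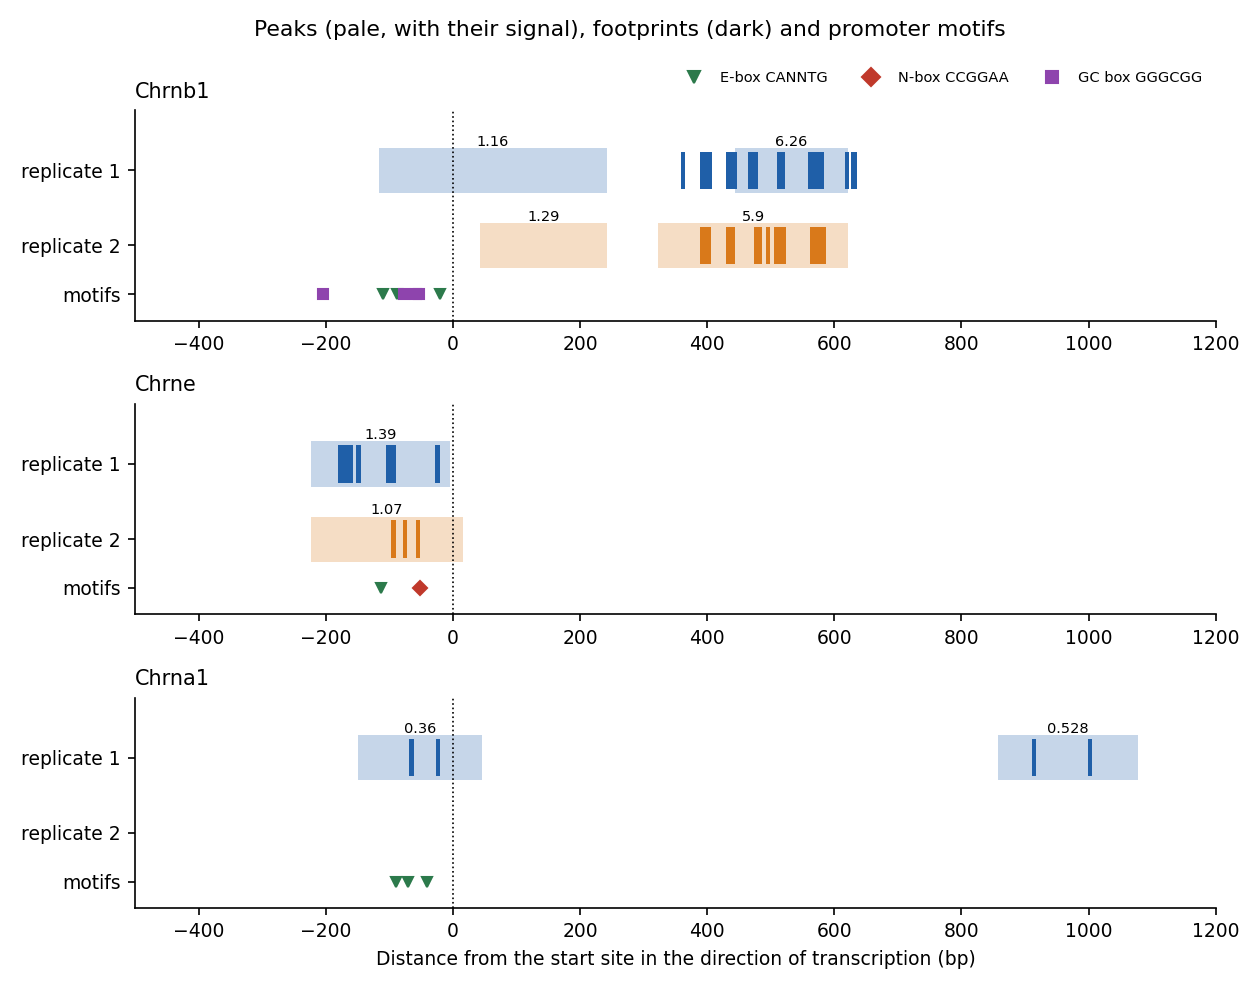
Peaks (pale bars, with their signal), footprints (dark bars) and motifs of the RefSeq promoter windows (symbols) around the most upstream GENCODE start site of Chrnb1, Chrne and Chrna1, in the direction of transcription (bp). The Chrnb1 footprints lie downstream of the start site and the Chrne footprints upstream of it, while Chrna1 has peaks in replicate 1 alone.

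Around Chrnb1 the neighbouring genes supplied most other regions. An intergenic region between Fgf11 and Tmem102 (chr11:69802861-69803060) had 2.96 in replicate 1 and 3.92 in replicate 2, a mean of 3.44 ± 0.682, at percentiles 92.2 and 92.3. It held 4 GC boxes, 2 of them in footprints in both replicates. A coding exon of Tmem102 (chr11:69803821-69804080) had 1.48 and 1.52, and the promoter region of Zbtb4, which encodes a zinc-finger protein that binds methylated DNA, had 1.35 and 1.39. Within Chrnb1 itself, regions at intron 10 (chr11:69784901-69785100, 0.868) and intron 5 (chr11:69793521-69793740, 0.853) were called in replicate 1 alone. The locus held 12 and 9 peaks and 38 and 31 footprints, and 7 of its 14 regions were called in both replicates.

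Chrnd (chr1:87190607-87200070, plus strand) and Chrng (chr1:87204657-87212694, plus strand), the delta and gamma subunit genes, had no peak in their promoters or gene records in either replicate. The other 3 genes had a peak in the gene record in both replicates, beside 72.2% of all genes in replicate 1 and 69.3% in replicate 2, and 26.3% had none in either. Nor did either record hold a base under a false discovery rate of 0.05, a state shared by 24.5% of all protein-coding genes. In their promoters no base passed that limit either, as at 32.0% of genes. The stretch without such a base ran for 26120 bp in replicate 1 and 25760 bp in replicate 2, and 25731 bp were without one in both (chr1:87187367-87213097). The deposited lists hold only bases under 0.05, so weaker accessibility was not measurable here, and the depth behind the lists is unknown.

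The Chrng promoter is shown because it carries E-boxes in chromatin without a peak. These are the 250 bases before the RefSeq start site (GRCm38.p6, chr1:87205561-87205810, plus strand), with E-boxes CANNTG in capitals at -155, -132 and -75. That start site, also a GENCODE one, lies 1154 bp downstream of the most upstream GENCODE start site of Chrng, so these bases are inside the gene record.
Chrng promoter: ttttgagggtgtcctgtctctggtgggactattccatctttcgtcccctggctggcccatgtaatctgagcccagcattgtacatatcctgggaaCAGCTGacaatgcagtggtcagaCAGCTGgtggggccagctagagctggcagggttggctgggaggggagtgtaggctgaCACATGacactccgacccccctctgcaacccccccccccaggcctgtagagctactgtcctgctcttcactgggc
Of the 3 E-boxes, 2 are CAGCTG, as in Chrna1, and 1 is CACATG. None lay in a peak or a footprint in either replicate.

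All 8 regions of the Chrnd-Chrng locus lay at its flanks, and 7 were called in both replicates. On the Chrnd side, 2 lay in introns of Prss56, a serine protease gene, with 1.15 in replicate 1 and 1.46 in replicate 2 (chr1:87184941-87185140) and with 1.40 and 1.29 (chr1:87187121-87187300). Further out were intergenic regions with 1.18 and 1.19 (chr1:87174401-87174600) and with 0.563 and 0.542 (chr1:87175881-87176069). On the Chrng side lay the promoter of Eif4e2, which encodes a cap-binding protein, with 5.47 in replicate 1 and 5.80 in replicate 2 (chr1:87213781-87214020) and 1.86 and 2.35 (chr1:87214201-87214420). An intron of the same gene had 2.25 and 1.45 (chr1:87227221-87227420). The locus held 7 and 8 peaks, so its density of peaks, above 64.1% and 81.0% of genes, came wholly from neighbouring genes and intergenic DNA.

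Chrne, the epsilon subunit gene of the adult receptor (chr11:70614883-70619216, minus strand), was the smallest of the 5 and had a promoter peak in both replicates. Its signal was 1.39 in replicate 1 and 1.07 in replicate 2, a mean of 1.23 ± 0.225, at percentiles 78.6 and 64.7 of all peaks. The peak (chr11:70619201-70619440) had its middle upstream of the start site, at -114.5 bp in replicate 1 and -104.5 bp in replicate 2. It held 4 footprints in replicate 1 and 3 in replicate 2, and 1 place was footprinted in both (chr11:70619305-70619321 in replicate 1). The bases before the RefSeq start site are printed because they hold the N-box (GRCm38.p6, chr11:70619195-70619444, minus strand), with bases inside a footprint of either replicate in capitals.
Chrne promoter: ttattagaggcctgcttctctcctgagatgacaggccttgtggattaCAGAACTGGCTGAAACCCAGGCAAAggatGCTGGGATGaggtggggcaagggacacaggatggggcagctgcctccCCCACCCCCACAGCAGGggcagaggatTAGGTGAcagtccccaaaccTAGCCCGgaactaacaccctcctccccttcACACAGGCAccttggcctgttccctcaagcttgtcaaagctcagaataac
The N-box CCGGAA at -76 overlapped a footprint of replicate 2 in part and lay wholly within it once widened by 5 bp, while in replicate 1 it lay in the peak but in no footprint. The only E-box, CAGCTG at -138, lay in the peak in both replicates and in a footprint in neither. The N-box occurs in 15.2% of RefSeq promoter windows. Positions here count from the RefSeq start site, which lies 22 bp downstream of the GENCODE one.

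The other Chrne regions called in both replicates were at the gene's 3′ end, upstream, and in the neighbour Mink1. The first (chr11:70615061-70615280) covered intron 11 with parts of exons 11 and 12, had 1.20 in replicate 1 and 1.63 in replicate 2, and lay within 1 kb of the start site of 4930544D05Rik, a gene on the other strand. Its GC box lay in a footprint in both replicates. The upstream region (chr11:70622037-70622281) had 1.50 and 1.07 and held 6 and 3 footprints, with a CAGCTG in a footprint in replicate 1 alone. The intron of Mink1, which encodes a kinase (chr11:70605281-70605480), had 1.69 and 1.74, the closest pair of values at this locus. The locus held 7 and 5 peaks and 19 and 14 footprints.

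Promoter CpG content, which the choice of genes did not use, separated Chrnb1 from the others. The observed to expected CpG ratio within 1 kb of the start site was 0.529 for Chrnb1, in the middle tercile of all genes. It was 0.177 for Chrne, 0.192 for Chrnd, 0.211 for Chrng and 0.234 for Chrna1, all in the lowest tercile. In the lowest tercile 18.2% of 7275 genes had a promoter peak in both replicates, in the middle one 75.1% and in the highest 94.0%. So 1 of the 4 subunit genes in the lowest tercile (Chrne) was called in both. The Chrne signal exceeded 57.2% of the open promoters of that tercile in replicate 1 and 44.1% in replicate 2, against medians of 1.05 and 1.26. The Chrnb1 signal exceeded 86.1% and 81.3% of the open promoters of the middle tercile.

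**Figure D3:**
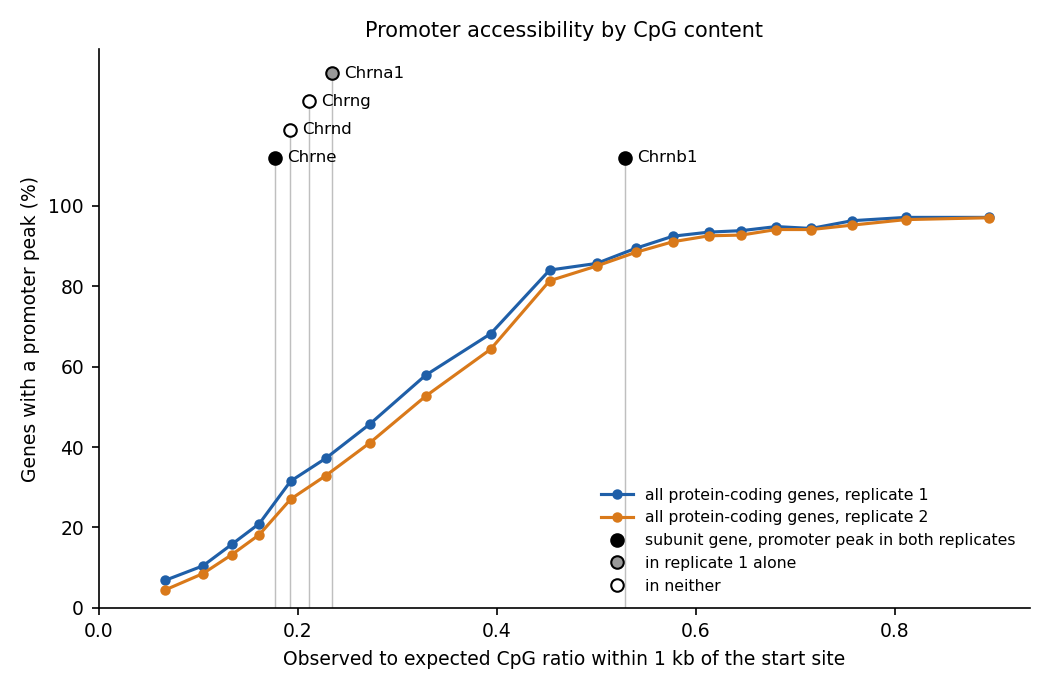
Share of protein-coding genes with a promoter peak (%, vertical axis) against the observed to expected CpG ratio of the promoter, in 20 bins of about equal numbers of genes, for both replicates. Circles mark the ratios of the 5 subunit genes, filled by whether a peak was called; 4 of them lie at ratios from 0.177 to 0.234, on the rising part of the curve.

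Regions called in both replicates had higher median signals than those called in 1. Of the 40 regions at the 4 loci, 22 (55%) were called in both replicates, 14 in replicate 1 alone and 4 in replicate 2 alone, beside 51.9% of 143462 regions called in both over the genome. The 22 had median signals of 1.37 in replicate 1 and 1.32 in replicate 2. The 14 of replicate 1 ranged from 0.294 to 0.868 and the 4 of replicate 2 from 0.436 to 0.699. For the 22, the log2 ratio of replicate 2 over replicate 1, relative to the genome median, ran from -0.61 at the Eif4e2 intron to 0.52 at Chrna1 intron 4. The middle 90% of all regions called in both ran from -0.80 to 0.60. Of the 22, 6 shared at least 1 base with the record of a subunit gene, and 5 had their middle in it.

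**Figure D4:**
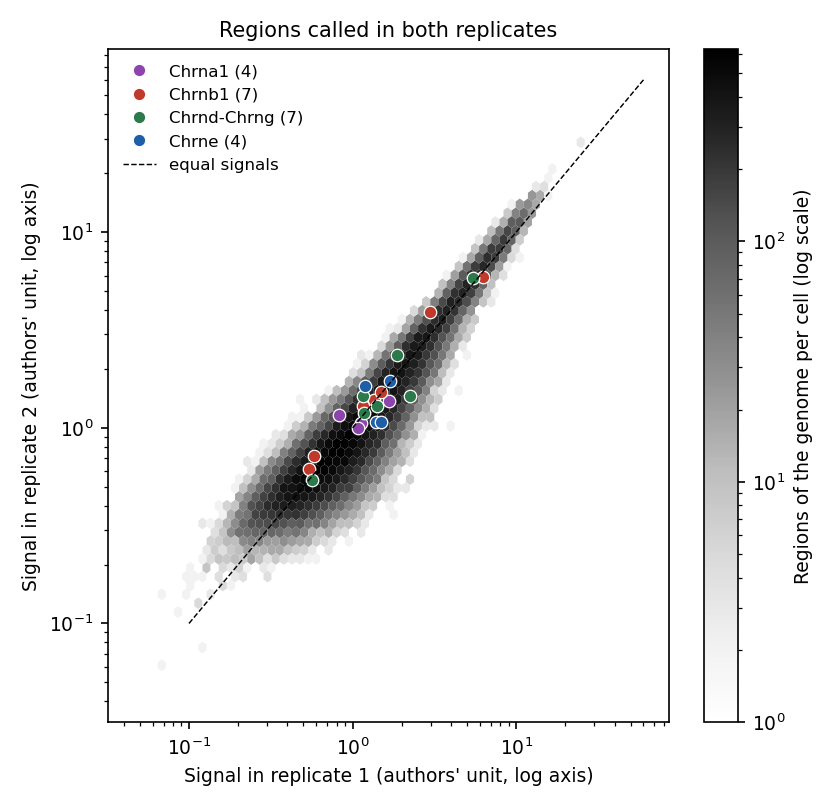
Signal in replicate 2 against signal in replicate 1 (authors' unit, log axes) for regions called in both replicates. Grey cells count regions of the whole genome and coloured points are the 22 regions of the 4 loci, which lie within the grey cloud; the highest are at Chrnb1 intron 2 and the Eif4e2 promoter.

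Footprints met in both replicates were wider by median. Since 1 shared bp was enough to meet, a wide footprint has more bases to meet with, but the part of this in the difference was not tested. At the 4 loci, 38 of 103 footprints of replicate 1 (36.9%) overlapped one of replicate 2, and 38 of 69 of replicate 2 (55.1%) overlapped one of replicate 1, beside 41.6% and 61.5% over the genome. The median width of those met was 18 bp in replicate 1 and 14 bp in replicate 2, against 8 and 7 bp for those not met. Over all footprints of the genome the same medians were 15 and 13 bp, against 8 and 8 bp.

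Several of these wide footprints held the core consensus of CTCF, a protein known for shaping chromatin loops and insulating genes from each other. The search allowed 1 mismatch on either strand, and it was added after the bases had been read. Its shares and intervals are therefore description only and no support for an excess. The core was found in 10 of 103 footprints in replicate 1 (9.71%, exact 95% interval 4.75 to 17.1%), beside 4.43% of all footprints, and in 6 of 69 in replicate 2 (8.70%, 3.26 to 18.0%), beside 4.81%. Of the footprints met in the other replicate it was in 7 of 38 and 6 of 38, 18.4% and 15.8%, beside 8.14% and 7.59% over the genome. A wide footprint has more room for the 12 bases, and the part of width in these shares was not tested. The 6 places found in both replicates are printed with 5 bp on each side, on the strand of the subunit gene and with the matching 12 bases in capitals (GRCm38).
Chrna1 intron 4 (chr2:73572612-73572642): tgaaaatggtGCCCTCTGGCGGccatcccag
Chrna1os start (chr2:73584745-73584786): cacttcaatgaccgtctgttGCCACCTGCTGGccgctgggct
Upstream of Chrnd, intergenic (chr1:87174461-87174498): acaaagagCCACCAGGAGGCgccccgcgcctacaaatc
Prss56 intron (chr1:87185027-87185064): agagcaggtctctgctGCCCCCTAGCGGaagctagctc
Prss56 intron (chr1:87187199-87187238): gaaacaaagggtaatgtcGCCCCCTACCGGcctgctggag
Mink1 intron (chr11:70605363-70605402): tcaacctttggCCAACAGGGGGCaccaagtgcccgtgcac
There were 2 at Chrna1 and 1 at Chrne. The other 3 lay on the Chrnd side of the Chrnd-Chrng locus and none on the Chrng side. The Chrna1os match overlaps an E-box CAGGTG, so both motifs count that footprint, the only CAGGTG footprint of replicate 2. The Mink1 footprint also counts for both CANNTG and the CTCF core, in both replicates. In replicate 1 alone the same holds for footprints at chr2:73550985-73551014 and chr11:70625660-70625696. The CANNTG shares below include all of these.

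Among motifs of muscle genes, the E-box CANNTG was in a smaller share of the footprints of the 4 loci than of all footprints, and the N-box in a larger one, on few footprints each. CANNTG was in 8.74% of them in replicate 1 (exact 95% interval 4.07 to 15.9%) and 7.25% in replicate 2 (2.39 to 16.1%), beside 11.3% and 10.49% of all footprints, which lie within these intervals. CAGCTG was in 1 of 103 (0.971%) and 0 of 69, beside 2.34% and 2.36%, and CAGGTG in 1.94% and 1.45%, beside 1.70% and 1.79%. The N-box was in 2 of 103 (1.94%, 0.236 to 6.84%) and 3 of 69 (4.35%, 0.906 to 12.2%), beside 1.18% and 1.48%, which also lie within the intervals. Its footprints of replicate 1 lay at the promoters of the neighbours Zbtb4 and Eif4e2. Those of replicate 2 lay at Zbtb4, in a Tmem102 exon and at the Chrne promoter. The GC box was in 10.7% (5.45 to 18.3%) and 15.9% (8.24 to 26.7%), beside 6.09% and 8.12%. Of its 11 footprints in each replicate, 5 in replicate 1 and 6 in replicate 2 lay at the Chrnb1 locus, 2 and 3 at the Eif4e2 promoter of the Chrnd-Chrng locus, 3 and 1 upstream of Chrna1, and 1 and 1 at Chrne. Those of the Chrnb1 locus lay in Chrnb1 intron 2, at the Zbtb4 promoter and between Fgf11 and Tmem102, and in replicate 1 also in Fgf11. The CCAAT box was in 2.91% and 5.80%, beside 3.44% and 3.29%. A MEF2 site was in 0 of 103 and 0 of 69, beside 0.201% and 0.0790% of all footprints, and a CArG box in 0 and 0, beside 0.0801% and 0.0607%, so that all these shares are under 1 in 103. Motifs were counted with a 5 bp margin around the footprint. Wholly inside it the N-box was in 0.971% and 0% of the footprints of the loci and the GC box in 6.80% and 10.1%, a placement for which no share over all footprints was computed. These intervals cover counting error only, and neighbouring footprints of 1 region are not independent.

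Of 17 neuromuscular junction genes, which act with the receptor, 16 had a promoter peak in both replicates, beside 62.4% of all genes. By promoter CpG ratio, 9 of the 17 were in the highest tercile and 5 in the middle one, all open in both replicates, beside 94.0% and 75.1% of the genes of those terciles. Of the 3 in the lowest tercile 2 were open (Rapsn and Colq), beside 18.2%. The highest were Crk, an adaptor that binds Dok7, with 8.24 in replicate 1 and 8.98 in replicate 2, and Etv5, an Ets factor, with 8.71 and 8.07. Scn4a, the muscle sodium channel gene, had none in either, like Chrnd and Chrng. Of 9 regulators of receptor genes, 9 had a promoter peak in replicate 1 and 8 in replicate 2, beside 65.7% and 63.5% of all genes. By promoter CpG ratio, 3 were in the highest tercile and 4 in the middle one, all open in both replicates. Of the 2 in the lowest tercile 1 was open in both. Hdac4, a deacetylase that acts on receptor genes after denervation, had 11.5 and 12.1, and Mef2a had 6.51 and 7.31. Hdac9 had 0.401 in replicate 1 and no peak in replicate 2, and Dach2 had 0.168 and 0.157, at percentiles 1.61 and 3.35 of all peaks.

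Of the 11 nicotinic subunit genes used mainly outside muscle, 4 had a promoter peak in both replicates, beside 62.4% of all genes. By promoter CpG ratio, 6 of the 11 were in the lowest tercile, 1 of them open in both replicates, beside 18.2% of that tercile. In the middle tercile 1 of 3 was open, beside 75.1%, and in the highest 2 of 2, beside 94.0%. Chrna7 had 1.48 in replicate 1 and 1.22 in replicate 2, and Chrnb2 had 0.827 and 0.839, while Chrna2 and Chrna3 were among the 7 with none. All of these lie below Chrnb1, and the Chrna7 values lie about at those of Chrne. The median promoter signal over all open genes was 3.16 in replicate 1 and 3.41 in replicate 2.

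**Figure D5:**
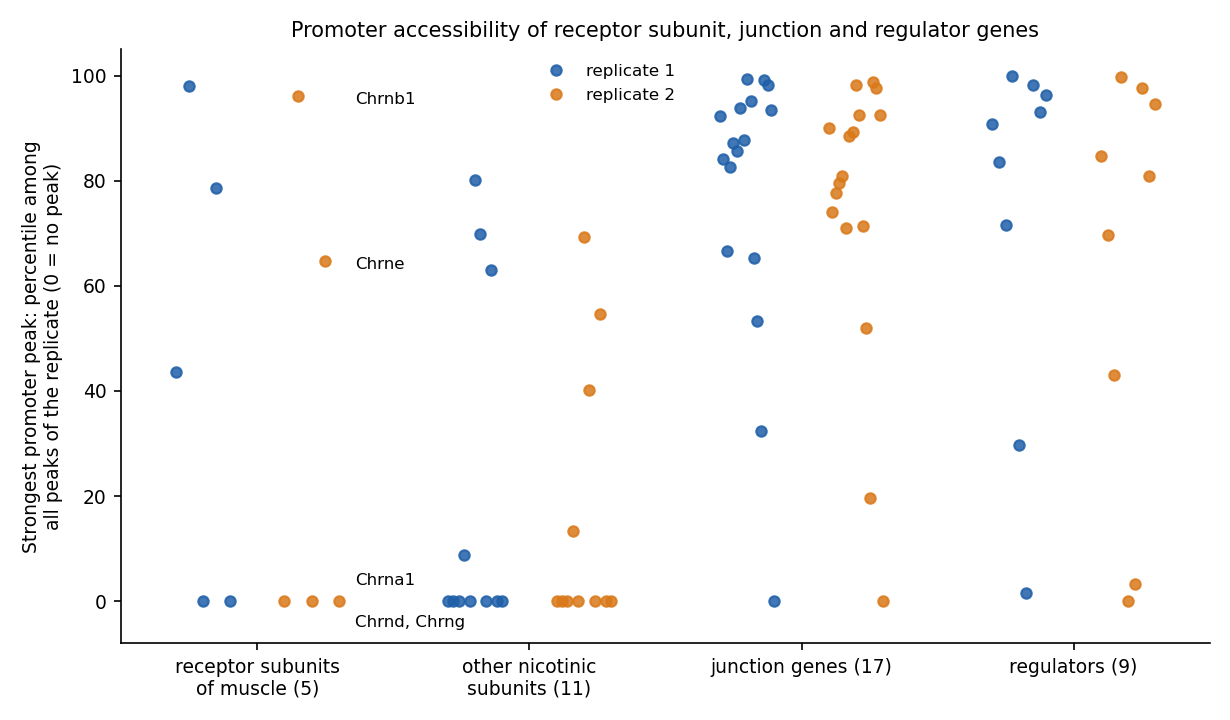
Percentile of the strongest promoter peak among all peaks of the replicate (vertical axis, 0 where there is no peak) for each gene of 4 lists, replicate 1 in blue and replicate 2 in orange. Chrnb1 lies at 97.9 and 96.1, Chrne at 78.6 and 64.7, and Chrnd and Chrng at 0, while 16 of 17 junction genes lie above 0 in both replicates.

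The listed genes whose pattern was nearest to each subunit gene were found over 4 values, promoter percentile and percentile of peak density in both replicates. Ache, acetylcholinesterase, was nearest to Chrnb1 (distance 10.1 percentile points) and Musk, the receptor kinase of the junction, was nearest to Chrne (13.3). Scn4a was nearest to Chrnd (25.3) and Chrng (33.7), but it had 9 peaks in its own record in replicate 1 and 10 in replicate 2, where Chrnd and Chrng had 0. Chrna10 was nearest to Chrna1, at a distance of 47.3, the farthest of the 5.

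The tissue label was set against marker genes. Of 8 muscle fibre markers, 8 had a promoter peak in replicate 1 and 7 in replicate 2, the exception being Myh4. Myh4 also had 44 peaks in or within 20 kb of its record in replicate 1 and 3 in replicate 2. Ttn went the other way, with 30 such peaks in replicate 1 and 68 in replicate 2. The remaining fibre markers had fewer in replicate 2. Of the markers of cells that surround the junction, 2 Schwann cell genes were open in both replicates and Sox10 had no promoter peak in either. Of 4 motor neuron genes, 2 and 1 were open. Chat and Slc18a3 had no promoter peak in either replicate, but Chat had 0 peaks in its record in replicate 1 and 25 in replicate 2. Satellite cell markers were open at 1 and 1 of 3 (Pax7 and Myf5 at none), fibroblast markers at 3 and 3 of 3, endothelial markers at 3 and 3 of 3, and macrophage markers at 1 and 1 of 3. Over all genes the open share was 65.7% in replicate 1 and 63.5% in replicate 2. Counts in marker lists this short therefore say little about which cells were present. The part of other cell types in the values of the subunit genes was not tested.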

How the data were processed

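DNase-seq was measured in 2 gastrocnemius samples of 1 group. Per the labels, reads were placed on mm10; the aligner, the callers and their versions are not given in the sources used here. Per the file headers and descriptions, the authors deposited for each sample a larger and a smaller peak list, footprints, and bases under a false discovery rate of 0.05. The peak signal was deposited by the authors in a unit that is not stated, and the depth per sample is unknown, so signals describe the lists and limit the precision of any difference between replicates. That false discovery rate is the p-value type measure of the site files as the authors deposited them; the footprint files give a constant threshold of 0.01 in its place. Both parental alleles were read against 1 reference genome.

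From these files, peaks and footprints were counted with Python 3.11.15, pandas 2.3.3, numpy 2.4.6 and pysam 0.24.0, in gene bodies of GENCODE M21 plus 20 kb. A gene needed a protein-coding start site, with 1 record per symbol. Regions are peaks of both replicates merged where they shared at least 1 bp. Percentiles give the share of peaks of the same list with a lower signal. Motifs were searched on both strands, wholly inside footprints widened by 5 bp. The motifs were the E-box CANNTG and its forms CAGCTG and CAGGTG, the N-box CCGGAA, the GC box GGGCGG, the CCAAT box, the MEF2 site, the CArG box and, added later, the CTCF core. Promoter sequences were RefSeq's (GRCm38.p6), which held 4 of the 5 genes. The peak, footprint and motif counting was tested on simulated data. Exact (Clopper-Pearson) 95% intervals cover counting error only.

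The genes and lists were chosen with earlier results of these data known. Named were the 5 genes, their neighbours with a record or a nearby peak, and of each list the 2 with the highest promoter percentile and up to 2 with no peak. Also named was the listed gene nearest to each subunit gene. Rapsn, Colq, Dach2 and the marker genes given singly were chosen after their values were seen. One Schwann cell marker is not reported here. Alternatives were promoters of 500 and 2500 bp, the most upstream start site, the smaller peak list, equal list lengths, flanks of 10 and 2 kb, a 50% overlap, footprints in peaks alone, other motif placements, and each replicate alone.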

Additional observations from a re-analysis of the deposited data

How the results depend on the processing

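The states of the 5 promoters (2.5 ± 0.707 genes with a peak, n = 2) were the same with promoters of 500 or 2500 bp, with the most upstream start site alone, with the smaller peak list and with equal list lengths. With promoters of 500 bp the Chrna1 value of replicate 1 was the 0.360 of the start-site peak. The smaller peak list lacks that peak. At percentile 24.5 of the 131398 peaks of replicate 1, it is also lost when the 91567 strongest are kept. In both cases the Chrna1 call rested on the intron 1 peak. The middle of the intron 1 peak lay 967.5 bp downstream and so near the edge of the 1 kb promoter. Counts over the 4 loci followed the flank: with 2 kb there were 12 peaks, 31 footprints and 8 regions called in both replicates. With 10 kb, 4.5 peaks, 10 footprints and 4 shared regions were left at the Chrnd-Chrng locus. These peaks and footprints fell by more than their SD. So did the peaks and footprints of the Chrnb1 locus and the peaks of the 4 loci together. Shared regions are counted over both replicates and have no SD. With motifs wholly inside the footprint, 5 of 9 motif shares moved beyond the spread: CANNTG was in 4.84% of the footprints against 7.99% with the 5 bp margin, the GC box in 8.47% against 13.3%, the N-box in 0.485% against 3.14%, the CCAAT box in 0.725% against 4.35% and CAGGTG in 1.21% against 1.70%. With a motif needing to share 1 bp with the footprint, the CTCF core moved to 10.7%, against 9.20%. Replicate by replicate, the 4 loci held 26 to 37 peaks and 69 to 103 footprints, and Chrna1 held 4 to 11 peaks and 8 to 25 footprints. The smaller list gave 2.5 other nicotinic genes with a promoter peak in place of 4. The cause of these shifts beyond their own construction was not tested. No paired analysis was possible because there is only 1 group to compare.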
